A study of Mus musculus with 48 samples.

Results

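The junctions described here lie on the constant-gene side of the JH segments in Igh, the locus of the mouse antibody heavy chain: in the 266725 bp of chromosome 12 (mm9 build) just below position 114666725, where JH4 ends. They were taken from the complete junction lists of libraries baited at JH1 to JH4, by prey position alone, and a junction with the same position, strand and bait end was counted once per library (a distinct junction). Of 301925 distinct junctions in 25 libraries, 578 (0.191%) lay in this stretch, and they came from 8923 of 10275487 lines of the lists, which are called reads here. Each library held 4 to 54 of them. Strand was read for each junction: a plus-strand prey runs from the constant genes toward JH, in the direction of the bait read, and a minus-strand prey runs away from JH.

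The assay was LAM-HTGTS, which copies outward from a fixed bait sequence and sequences what the bait has been joined to (the prey). All 8 groups carried the RAG1-deficient genotype label. For the bone marrow groups that label is given here as deposited: their lists hold joins to D and VH segments, and the labels name no source of RAG for them. Bone marrow pro-B cells of C57BL/6 background, purified with B220 beads and cultured with IL-7 and SCF, gave 3 wild-type libraries (WT bone marrow), and the same cells with the added label Igh Inversion gave 4 (INV bone marrow). The other 6 groups, with 3 libraries each, were v-Abl-transformed pro-B lines that carried OsTIR1 and Emu-Bcl2, had been infected with a RAG1/2 retrovirus and were held for 4 days in 3 uM STI-571, the drug that arrests such lines and lets V(D)J recombination start. They were the parental line, the line with an added Wapl-degron (untreated, or given 150 uM IAA and 2 mg/mL Dox for the last 3 days), the Wapl-degron line with a Single Igh label (untreated or IAA/Dox) and a single-Igh line titled INV (IAA/Dox). The inversion of the last line stands only in its title. The labels do not say whether a line is 1 clone or whether libraries of a group came from separate cultures or animals, so the p-values measure only the spread between these libraries.

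V(D)J recombination is started by the RAG nuclease, which is loaded in the JH region and cuts beside recombination signal sequences, each made of a heptamer, a spacer and a nonamer. The best heptamer begins with the bases CAC, and cutting leaves a signal end on the heptamer and a coding end on the other side. Cohesin reels chromatin past the bound RAG by loop extrusion, CTCF-bound elements hinder it, and Wapl takes cohesin off chromatin. Downstream of JH the mouse locus carries the constant genes from Ighm to Igha, then the 3' regulatory region and a cluster of CTCF sites, and no segment that V(D)J recombination normally uses.

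The sites that the results turn on are shown first, 60 bases each from mm9, 5′ to 3′ in the direction of the prey read, with the heptamer-like bases nearest the junction in capitals. The first pair are the most used sites of the region away from the edge of JH4, and the last pair are the opposite strands of 1 stretch and so show the coding and the signal side of the same heptamer. Their places are, in order, chr12:114461057-114461116 (plus), chr12:114462675-114462734 (plus), chr12:114478223-114478282 (plus), chr12:114654305-114654364 (plus), chr12:114663692-114663751 (plus), chr12:114664074-114664133 (plus) and the same positions on the minus strand.
205.6-kb site: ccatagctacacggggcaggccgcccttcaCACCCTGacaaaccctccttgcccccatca
204.0-kb site: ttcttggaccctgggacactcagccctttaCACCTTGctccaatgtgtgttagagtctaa
188.5-kb site: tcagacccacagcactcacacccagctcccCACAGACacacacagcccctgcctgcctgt
12.4-kb site: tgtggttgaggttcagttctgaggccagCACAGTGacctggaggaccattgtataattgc
3.0-kb site: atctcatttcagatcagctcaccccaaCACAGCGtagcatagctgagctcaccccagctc
2.6-kb site, coding side: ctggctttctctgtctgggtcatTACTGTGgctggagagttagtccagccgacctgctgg
2.6-kb site, signal side: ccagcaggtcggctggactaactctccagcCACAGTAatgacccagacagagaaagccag

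Some features of the libraries touch every result below. The lists held 61194 to 1016401 reads and 1977 to 27675 distinct junctions per library, and 9 sequencing runs were used. In Wapl-degron IAA/Dox replicate 2, 28.4% of the lines repeat a read name, against at most 0.192% in any other library. Values that count every read therefore count some reads of that library more than 1 time. Several libraries shared identical junctions on other chromosomes: 81 of 223 (36.3% of the smaller list) between replicates 1 and 2 of the Wapl-degron IAA/Dox group, 61 (27.4%) between replicates 1 and 3, 670 of 3546 (18.9%) between replicates 2 and 3 of the single-Igh INV group, and 254 of 2609 (9.74%) between replicates 1 and 3 of the single-Igh IAA/Dox group. The other 296 pairs of libraries shared at most 8.50%, with a median of 3.69%. That maximum was reached between libraries of different groups (INV bone marrow and untreated Wapl-degron), so the 9.74% lies close to it. How much sharing arises by chance was not tested. On the constant-gene side, replicate 2 of the single-Igh INV group had all 5 of its junctions in replicate 3, and replicates 1 and 3 of single-Igh IAA/Dox shared 6, of 9 and 12. Replicates 1 and 2 of Wapl-degron IAA/Dox shared 2, of 4 and 8, and each pair of replicates 2, 3 and 4 of INV bone marrow, which held 11, 8 and 8, shared 2. The main results of these groups, apart from the test between the Wapl-degron and single-Igh lines, are therefore also given with 1 of the sharing libraries left out. Sharing on this side was not limited to them. Replicates 1 and 3 of untreated Wapl-degron, with 29 and 32, shared 3. Replicate 3 of that group also shared 2 with replicate 1 of untreated single-Igh, which held 14. The bait segment also varied: 92.3% of the parental replicate 1 reads came from JH4, and replicate 1 of the untreated single-Igh group was all JH2. A single-Igh INV library was all JH1, and an untreated Wapl-degron library had 0% JH2. In replicates 1 and 3 of single-Igh IAA/Dox, which share junctions, JH1 made up 81.6% and 80.3% of reads and JH2 3.22% and 4.07%.

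A large part of the reads lay at the very edge of JH4. Within the 6 bases next to JH4 there were 226 distinct plus-strand junctions and 8060 reads, 90.3% of all reads on this side. In 224 of these junctions (8057 reads) the bait and the prey alignment shared 28 to 57 bases of the read, with a median of 42. The remaining junctions of the region shared at most 8. The bait was JH2 in 79.6% of these reads, JH1 in 16.3%, JH3 in 4.05% and JH4 in none, while 89.8% of reads with a JH4 bait had bait alignments that start in those same 6 bases. What made these reads was not tested. They are called edge junctions here and kept apart, which leaves 354 distinct junctions (276 plus, 78 minus) from 866 reads.

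The edge junctions were seen in every library, at levels that differed between groups. Their share of all distinct junctions was 0.0235% ± 0.00799 (SD, n = 3) in WT bone marrow and 0.0294% ± 0.0118 (n = 4) in INV bone marrow. In the lines it was 0.0807% ± 0.0421 in the parental group, 0.0898% ± 0.00630 in untreated and 0.135% ± 0.0196 in IAA/Dox Wapl-degron, 0.103% ± 0.0446 in untreated and 0.0579% ± 0.0114 in IAA/Dox single-Igh, and 0.191% ± 0.0101 in single-Igh INV (n = 3 each). The single-Igh INV libraries, at 0.183% to 0.202%, were the highest group by this count, and the bone marrow groups were the lowest. The bait mix differed between libraries, with little JH2 in replicates 1 and 3 of single-Igh IAA/Dox, and its part in these shares was not tested. As a share of reads, with all junctions in those 6 bases counted, the IAA/Dox Wapl-degron libraries were highest (0.404% to 0.545%), against 0.0327% to 0.228% in single-Igh INV.

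Away from that edge the junctions formed 2 clusters with almost nothing between them. In the 5777 bp from the edge to Ighm, the gene of the mu heavy chain, which hold the intronic enhancer, there were 117 distinct junctions, 57 plus and 60 minus. The 147620 bp from Ighm to Gm900, the name that the mm9 annotation gives to the epsilon gene Ighe, held 15. The 81659 bp from Gm900 to Tmem121, a gene of another family that borders the locus, held 219 (203 plus and 16 minus, 480 reads), all between 177.4 and 211.5 kb from JH. By the gene order of RefSeq, Igha lies in that interval. From Tmem121 to the end of the region there was 1 junction.

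**Figure D1:**
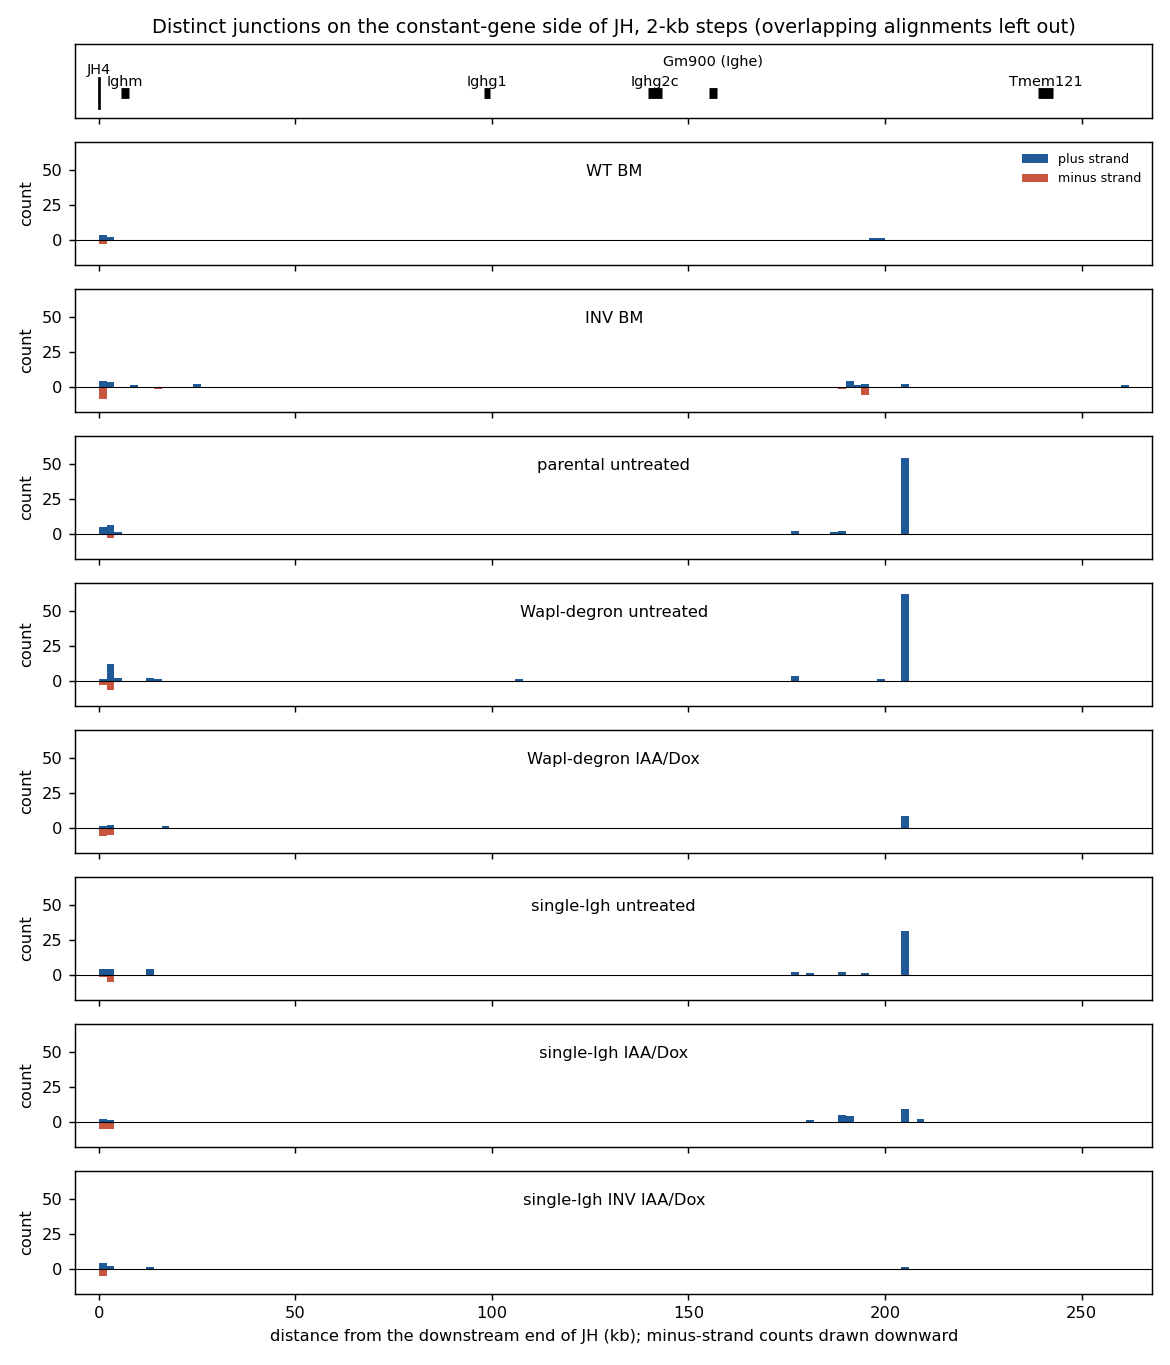
Distinct junctions (vertical axis, counts in 2-kb steps, minus strand drawn downward) against distance from the downstream end of JH in kb (horizontal axis), 1 panel per group summed over its libraries, with edge junctions left out and annotated genes drawn to scale on top. The tall plus-strand bar near 205 kb is seen in the parental line and in the untreated Wapl-degron and single-Igh groups, and is low or absent in the other groups.

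None of the annotated constant genes held a junction. Ighm, Ighg1 (the gamma-1 gene), Ighg2c, Gm900 and the constant genes listed only as Ighg and AI324046 all stood at 0 of 301925 distinct junctions. This allows a share of up to 0.000994% each, counting error only. The mm9 annotation used here does not name Ighd, Ighg3, Ighg2b or Igha, so these are given no value under those names. By the RefSeq order, Ighg lies in the place of Ighg2b, and AI324046 lies between Ighg1 and Ighm, as Ighg3 and Ighd do. The 50-base sequences that are unique in chromosome 12 made up 100% of Ighm and 99.3% of Gm900, and 86.1% to 92.7% of the stretches between the genes.

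Junctions of 1 strand that lay within 10 bases of each other were joined to sites, which gave 96 sites, of which 60 held a single distinct junction and 33 were found in more than 1 library. Leaving out the edge, the site 205.6 kb from JH was used most, with 113 distinct junctions from 266 reads in 14 libraries of 7 groups. The site 204.0 kb from JH, 1618 bp nearer, had 43 from 61 reads in 14 libraries of 5 groups. Both lie between annotated genes and are plus-strand sites. Together they held 156 (71.2%) of the 219 junctions of the far cluster.

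Both sites have a heptamer-like sequence at the point of joining. The capitals of the 205.6-kb site match the standard heptamer CACAGTG at 5 of 7 bases, and those of the 204.0-kb site also at 5. At the 205.6-kb site 51 of the 113 prey sequences start exactly on the first capital base, and 98 (86.7%) start there or up to 5 bases into the heptamer. At the 204.0-kb site 15 of 43 start exactly there and 36 (83.7%) within 5 bases. The nonamer is a poor match at both: at most 3 of 9 bases at either the 12-base or the 23-base spacing. The joins came from many bait ends (44 and 26 different ones), and 74 and 33 of them had no inserted bases.

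**Figure D2:**
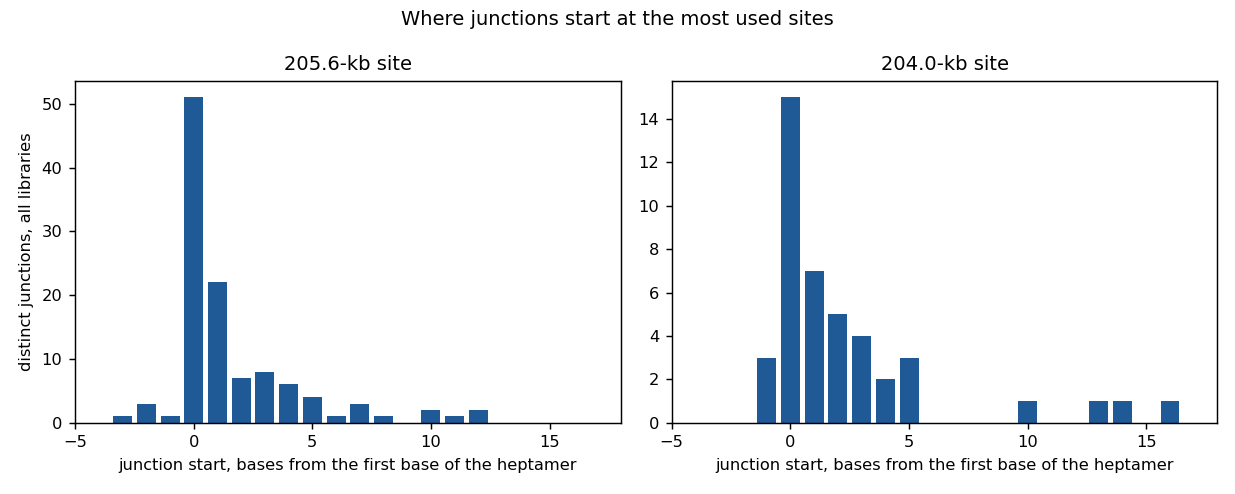
Distinct junctions of all libraries (vertical axis) by the base at which the prey starts, counted from the first base of the heptamer (horizontal axis, bases), at the 205.6-kb site on the left and the 204.0-kb site on the right. The highest bars, 51 and 15 junctions, stand at 0, and later starts fall off within the next few bases.

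The other sites named by the rule were smaller but mostly of the same kind. The 188.5-kb site had 9 distinct junctions, 5 of them in single-Igh IAA/Dox and 2 each in the parental and untreated single-Igh groups. A site at 191.6 kb had 4, 3 in single-Igh IAA/Dox and 1 in INV bone marrow. The site at 177.4 kb is joined on its coding side and had 7, from the parental line (2), untreated Wapl-degron (3) and untreated single-Igh (2). These 3 sites are not separate sequences. Read on the opposite strand, the bases around the 177.4-kb site are nearly those of the 188.5-kb site, and the 191.6-kb site holds a long part of them. The 50 bases of prey from each of the 3 sites on were still unique in chromosome 12. Between Ighm and Gm900, the 12.4-kb site, which carries the standard heptamer in full, had 7 junctions, 4 of them in untreated single-Igh, 2 in untreated Wapl-degron and 1 in single-Igh INV.

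Within the intron, the 3.0-kb site had 13 distinct junctions (6 in untreated Wapl-degron, 4 in the parental line, 2 in single-Igh INV, 1 in untreated single-Igh), and a site 1.6 kb from JH had 5. The 2.6-kb site was joined on both sides of 1 heptamer, which matches the standard at 6 of 7 bases. Its signal side, on the minus strand, had 11 junctions, 5 in untreated Wapl-degron, 3 in the parental line and 3 in single-Igh IAA/Dox, with a median insert of 0. Its coding side had 10, of which 5 were in untreated Wapl-degron, 3 in INV bone marrow and 1 each in WT bone marrow and untreated single-Igh, and these carried inserts of 7 to 29 bases with a median of 17.5. Within 1 kb of JH4, besides the edge, minus-strand sites 154 and 595 bp away had 4 junctions each.

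Starts at CAC were common on the plus strand of the far cluster as a whole. There, 82 of 203 (40.4%) started exactly at CAC and 169 (83.3%) within 5 bases after it, whereas 2.14% and 10.8% of all positions in that stretch, both strands counted, would do so. Outside the 2 main sites, 31 of the 47 plus-strand junctions (66.0%) started within 5 bases after a CAC. The 16 minus-strand junctions of the far cluster differed: 11 (68.8%) followed a GTG, the other side of such a heptamer, within 5 bases, and none followed a CAC. Of all positions there, 10.8% would follow a GTG so closely. INV bone marrow gave 10 of these 16, 6 of them at 1 site 194.7 kb from JH, so strand and group are in part the same thing here. In the intron the share within 5 bases after CAC was 23 of 57 (40.4%) on the plus and 12 of 60 (20%) on the minus strand, against 7.95% of positions. A match to these letters describes the sequence and does not show that RAG cut there.

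The inserts between bait and prey divided in the same way. An insert counts the read bases that neither alignment covers, and was set against the annotated D segments, the short segments that normally lie between V and J. Of the 209 junctions that start within 5 bases after a CAC, 4.78% had inserts of 8 bases or more and 4 held an 8-base match to a D segment. Of the 50 that follow a GTG, 62% had such inserts, 26 matched a D segment and the median insert was 12. The 95 junctions of neither kind had 14.7% and 12. In all, 42 junctions carried a D match, in inserts of 9 to 29 bases (median 17).

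**Figure D3:**
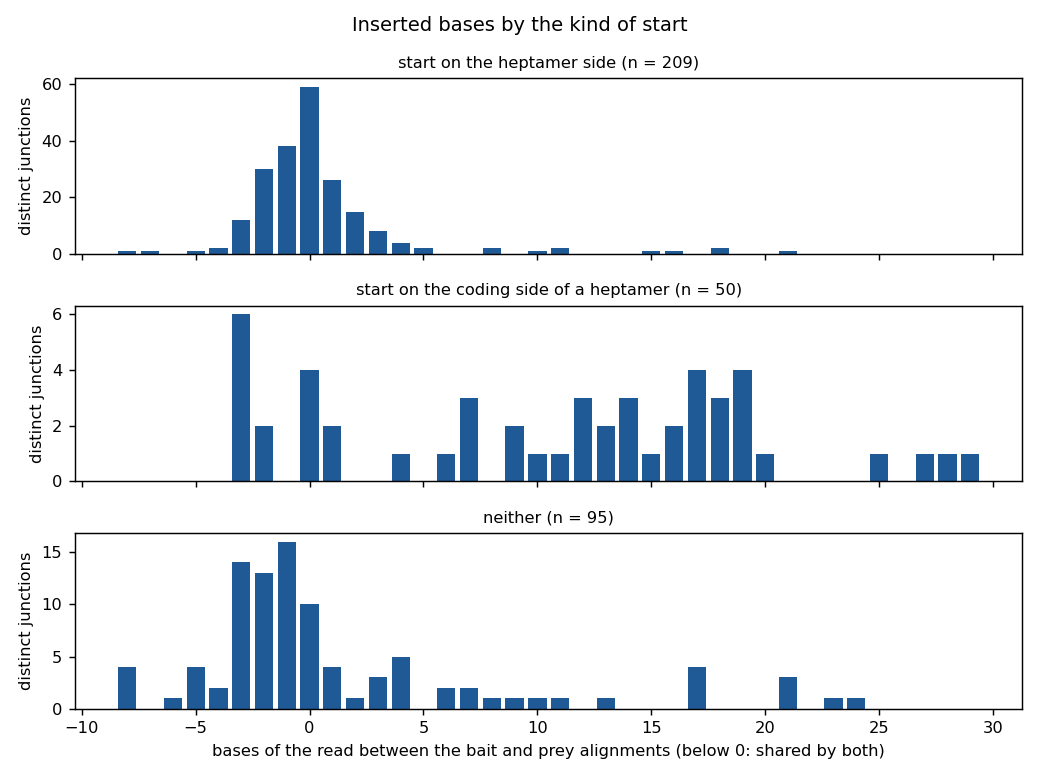
Distinct junctions (vertical axis) by the number of read bases between the bait and prey alignments (horizontal axis, below 0 where both share bases), for starts on the heptamer side (209), on the coding side of a heptamer (50) and neither (95), edge junctions left out. The heptamer-side junctions gather around 0 and many coding-side junctions lie between 7 and 20 bases.

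Junctions with a D match were spread unevenly over the groups. They were 3 of 10 (30%) in WT and 15 of 42 (35.7%) in INV bone marrow. In the lines they were 4 of 77 (5.19%) in the parental group, 9 of 96 (9.38%) in untreated and 2 of 23 (8.70%) in IAA/Dox Wapl-degron, 6 of 58 (10.3%) in untreated and 3 of 35 (8.57%) in IAA/Dox single-Igh, and 0 of 13 in single-Igh INV. The bone marrow groups thus had the higher shares, from few junctions.

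The share of the far cluster differed between bait segments when libraries were pooled. It took 0.110% of the distinct junctions baited at JH1, 0.0801% at JH2, 0.0599% at JH3 and 0.0303% at JH4, a fall in the order of the segments toward the constant genes. These shares are pooled over libraries whose bait mix differs, so segment and library are in part the same thing here, and no comparison within libraries was made. At the 205.6-kb site the baits were JH1 in 36, JH2 in 53, JH3 in 18 and JH4 in 6 junctions, and at the 204.0-kb site 18, 13, 9 and 3. Of these 156 junctions, 85 (54.5%) had a bait end within 10 bases of the annotated 5′ end of a JH, close to the 178 of 354 (50.3%) over all junctions without the edge.

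Counted as distinct junctions over all distinct junctions, the far cluster was largest in the lines without IAA/Dox. The distinct junctions from Gm900 to Tmem121 numbered 2, 30 and 29 in the parental line, 20, 22 and 25 in untreated Wapl-degron and 11, 19 and 9 in untreated single-Igh. With IAA/Dox they numbered 1, 2 and 5 in Wapl-degron, 6, 10 and 6 in single-Igh and 1, 0 and 0 in single-Igh INV. Bone marrow gave 2, 0 and 0 (WT) and 4, 6, 4 and 5 (INV). As shares of all distinct junctions these were 0.150% ± 0.0732 (parental), 0.171% ± 0.0628 and 0.0250% ± 0.0139 (Wapl-degron, untreated and IAA/Dox), 0.142% ± 0.0627 and 0.0863% ± 0.00480 (single-Igh), 0.0169% ± 0.0292 (single-Igh INV), 0.00241% ± 0.00417 (WT) and 0.0290% ± 0.00722 (INV). The order depends on the count: as shares of reads, single-Igh IAA/Dox had the highest mean (0.0102%), ahead of untreated Wapl-degron (0.0090%), the parental line (0.00714%) and untreated single-Igh (0.00517%). Against junctions on other chromosomes, INV bone marrow had the highest mean (1.39% ± 1.74), but this rests on replicate 1, with 4 far junctions over 100 on other chromosomes (4%), and its other libraries, with 6 over 878, 4 over 753 and 5 over 1407, each lay below the mean of untreated single-Igh (0.882%). This zone was drawn after the junctions had been seen, so it is described without a test.

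**Figure D4:**
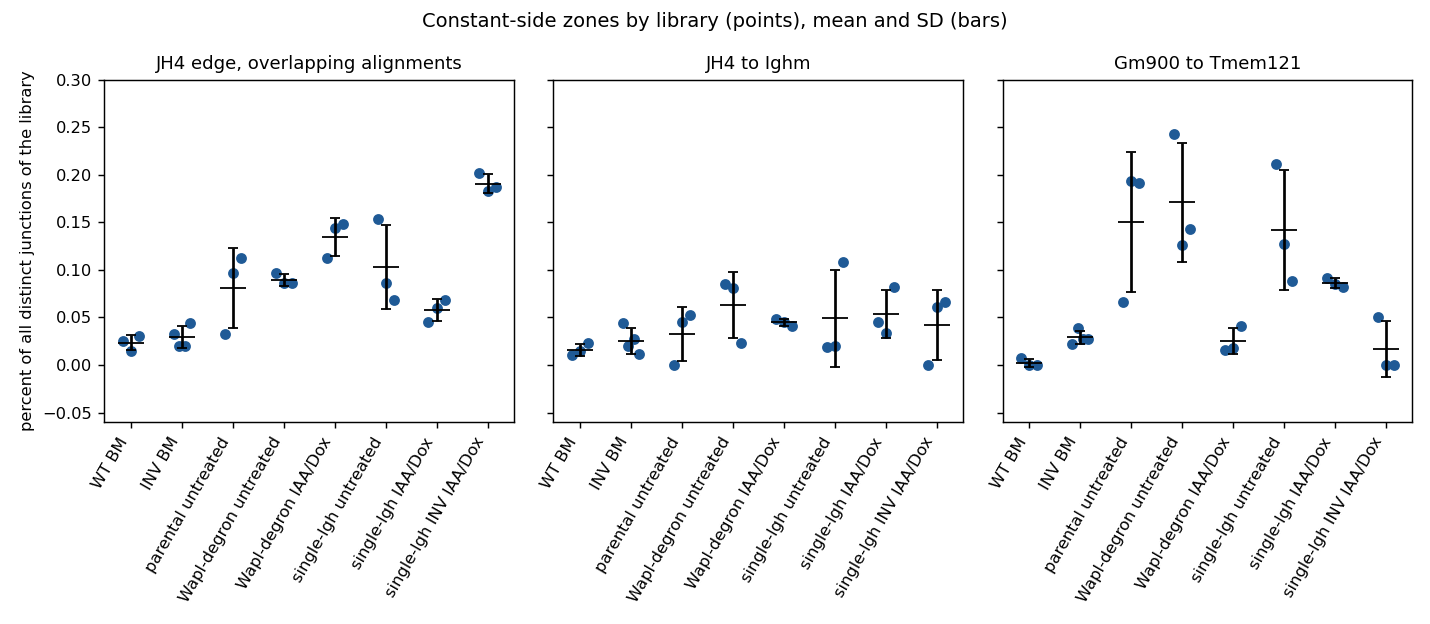
Share of all distinct junctions of a library (vertical axis, percent) at the JH4 edge, from JH4 to Ighm and from Gm900 to Tmem121, with 1 point per library and bars for group mean and SD. Edge junctions are highest in single-Igh INV, the groups lie closer together in the intron, and the Gm900 to Tmem121 stretch is highest in the parental line and the untreated Wapl-degron and single-Igh groups.

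In the intron cluster, the line groups lay closer together. Its distinct junctions per library numbered 3, 2 and 3 in WT and 8, 3, 4 and 2 in INV bone marrow, 0, 7 and 8 in the parental line, 7, 14 and 4 in untreated and 3, 5 and 5 in IAA/Dox Wapl-degron, 1, 3 and 11 in untreated and 3, 4 and 6 in IAA/Dox single-Igh, and 0, 5 and 6 in single-Igh INV. As shares of all distinct junctions, these lay between 0.0108% and 0.0229% in WT bone marrow, 0.0111% and 0.0440% in INV bone marrow, 0.0230% and 0.0850% in untreated Wapl-degron, 0.0411% and 0.0481% in IAA/Dox Wapl-degron, and 0.0341% and 0.0821% in single-Igh IAA/Dox. WT bone marrow thus lay below those 3 line groups without overlap, and it overlapped with the parental line (0% to 0.0529%), untreated single-Igh (0.0192% to 0.108%) and single-Igh INV (0% to 0.0661%). Untreated and IAA/Dox libraries of a line overlapped. This zone too was drawn after the junctions had been seen and was not tested. In the Wapl-degron group with IAA/Dox 2 of 3, 5 of 5 and 4 of 5 were on the minus strand, and in the single-Igh group with IAA/Dox 2 of 3, 4 of 4 and 4 of 6. The untreated libraries had 2 of 7, 8 of 14 and 0 of 4 (Wapl-degron), 0 of 1, 2 of 3 and 5 of 11 (single-Igh) and 2 of 7 and 2 of 8 (parental replicates 2 and 3). Single-Igh INV had 2 of 5 and 3 of 6 in replicates 2 and 3, WT bone marrow 1 of 3, 0 of 2 and 2 of 3, and INV bone marrow 3 of 8, 2 of 3, 3 of 4 and 2 of 2. High minus-strand parts were thus also seen in INV bone marrow and in some untreated libraries.

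The first main comparison asks what IAA/Dox did in the Wapl-degron line, where IAA lets OsTIR1 direct a degron-tagged protein to degradation. The 205.6-kb site had 14, 13 and 22 distinct junctions in the untreated libraries and 0, 1 and 1 with IAA/Dox, so the groups do not overlap. Its share was 0.124% ± 0.0476 untreated and 0.00575% ± 0.00499 with IAA/Dox (n = 3 each, two-sided exact permutation p = 0.1, the smallest this design allows, 0.25 adjusted over 15 tests of sites). The site was picked for its high mean over the groups of these same data, which rests mainly on the lines without IAA/Dox. This p therefore adds no support to the counts. Without IAA/Dox replicate 1 the difference was -0.115 percentage points, close to the -0.118 with it. The 204.0-kb site had 4, 2 and 2 junctions untreated and 1, 1 and 4 with IAA/Dox, which overlap, with shares of 0.0238% ± 0.0214 and 0.0193% ± 0.0122 (exact p = 0.8; a difference of -0.00454 percentage points, and -0.00291 without IAA/Dox replicate 1). Of the junctions at either site, 49 of 57 were at the 205.6-kb site in the untreated group (86.0%, exact 95% interval 74.2% to 93.7%) and 2 of 8 with IAA/Dox (25%, 3.19% to 65.1%). The intervals cover counting error only, and the split was looked at after the sites had been seen.

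A fit was also made over the whole Igh locus in 5-kb intervals. limma voom was run on distinct junctions per 5-kb interval and strand, scaled to all distinct junctions of a library, and a Benjamini-Hochberg adjusted p under 0.05 was called. Most intervals lie among the VH segments, and the median log2 difference of all intervals was 2.82 here, 2.48 for IAA/Dox in the single-Igh line, -3.34 for single-Igh INV, -2.47 for INV bone marrow, -0.03 for the untreated lines and 3.24 for WT bone marrow against the parental line. Junctions per library are shares of a whole, so a rise among VH intervals and a fall elsewhere are tied to each other. The plus-strand interval 205 to 210 kb from JH fell with IAA/Dox, from 52 junctions to 2, a log2 difference of -3.48 (SE 0.50, limma adjusted p = 1.8e-11). It passed the minimum of 10 junctions only through the untreated group, so a lower call was the only direction open to it, and the call adds no support to the counts at the site. The interval 200 to 205 kb, next to it, had 10 and 6, a log2 difference of -0.27 (adjusted p = 0.677). Of 4 constant-side intervals tested 2 were called, 1 of them lower, against 83.4% of all 145 intervals (69% called higher and 14.5% lower, and 82.1% with libraries that did not overlap). The other, the minus-strand interval within 5 kb of JH, had 11 with IAA/Dox and 10 untreated, a log2 difference of 1.30 (adjusted p = 0.0403) with overlapping libraries. This last call was lost in 4 of the 6 fits that leave out 1 library (untreated replicate 3, or any IAA/Dox replicate). Scaled by the trimmed mean of the intervals in place of all junctions, 3 were called lower and 0 higher. Without IAA/Dox replicate 1, the library with the most shared junctions, the 205 to 210 kb value was -3.22 (limma adjusted p = 4.6e-07).

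The region as a whole had a lower mean share with IAA/Dox in this line. Its share of distinct junctions was 0.333% ± 0.0927 untreated and 0.210% ± 0.0314 with IAA/Dox (n = 3 each, no overlap, exact p = 0.1, 0.18 adjusted over 18 tests), edge junctions included, a difference of -0.123 percentage points that was -0.0712 without untreated replicate 1. The part of it beyond Ighm was 53.8% ± 7.38 and 12.7% ± 6.93 (no overlap, exact p = 0.1). The plus-strand part was 92.2% ± 7.56 and 82.4% ± 3.56, which overlap (exact p = 0.2). Its difference of -9.79 percentage points ran from -13.4 to -5.89 when 1 library was left out. Without edge junctions, which are all plus, the plus-strand part was 89.4% and 50.4%, a difference of -39.0 percentage points (exact p = 0.1, the smallest possible). The total share turned the other way when all reads were counted or when only junctions on other chromosomes were the denominator. Within the 1 sequencing run that held both groups (1 IAA/Dox and 3 untreated libraries), the differences were -0.117, -45.5 and -13.0 percentage points in the order total, far and plus-strand part. Without IAA/Dox replicate 1 the far part differed by -39.3 percentage points, and without replicate 2 by -38.9.

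In the single-Igh line the counts at the 205.6-kb site had the same direction. It had 8, 10 and 4 distinct junctions untreated and 1, 0 and 0 with IAA/Dox, without overlap, or 0.0865% ± 0.0596 and 0.00509% ± 0.00881 (exact p = 0.1, 0.25 adjusted). Here too the untreated group helped to pick the site, so this p adds no support. The 204.0-kb site had 1, 7 and 1 untreated and 2, 3 and 3 with IAA/Dox, or 0.0252% ± 0.0192 and 0.0324% ± 0.00793, which overlap (exact p = 0.6). As shares of reads the order differs: at the 205.6-kb site the groups overlap (0.000915% to 0.00558% untreated and 0% to 0.00107% with IAA/Dox), and at the 204.0-kb site they do not, with the higher values under IAA/Dox (0.000372% to 0.00112% and 0.00215% to 0.00397%). Without IAA/Dox replicate 1 or 3, which share junctions, the differences were -0.0865 and -0.0789 percentage points at the 205.6-kb site and 0.00806 and 0.00278 at the 204.0-kb site. Without untreated replicate 1, the library that was all JH2, the 205.6-kb difference was -0.0480, against -0.0814 with it. Of the junctions at either site 22 of 31 (71.0%, exact 95% interval 52.0% to 85.8%) and 1 of 9 (11.1%, 0.281% to 48.2%) were at the 205.6-kb site.

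**Figure D5:**
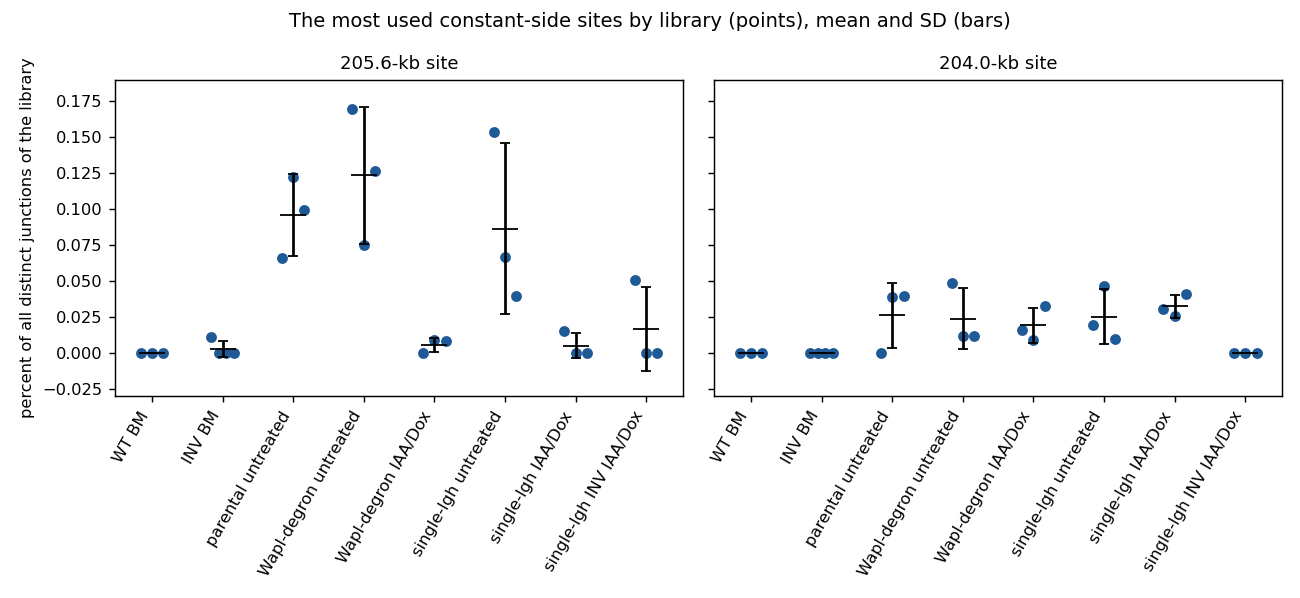
Share of all distinct junctions of a library (vertical axis, percent) at the 205.6-kb site and the 204.0-kb site, with 1 point per library and bars for group mean and SD. At the 205.6-kb site every library of the untreated Wapl-degron and single-Igh groups lies above every IAA/Dox library of the same line, and at the 204.0-kb site they overlap.

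The fit over intervals gave a smaller difference in this line. The plus-strand interval 205 to 210 kb had 22 junctions untreated and 3 with IAA/Dox and fell by 2.31 on the log2 scale (SE 0.66, limma adjusted p = 0.00123; this interval too passed the minimum of 10 junctions only through the untreated group, so the call adds no support), while 200 to 205 kb had 9 and 8 (0.44, adjusted p = 0.538). It was the 1 interval called of 4 on the constant side, against 86.4% of all 140 intervals (66.4% called higher and 20% lower, and 85.7% without overlap). Scaled by the trimmed mean of the intervals, 2 were lower and 0 higher. Without IAA/Dox replicate 2 the value was -1.30 and was not called (limma adjusted p = 0.0713); this leaves replicates 1 and 3, which share junctions. Without replicate 1 or 3 it was -2.95 (adjusted p = 0.000322) or -2.42 (adjusted p = 0.00639), and with every read counted it was -0.77 and not called (adjusted p = 0.494).

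The part beyond Ighm did not separate the single-Igh groups. It was 50.1% ± 12.6 untreated and 44.3% ± 7.89 with IAA/Dox (overlapping, exact p = 0.5). The difference of -5.82 percentage points ran from -13.0 to -1.31 when 1 library was left out, with the latter value without IAA/Dox replicate 3. Of the 22 junctions that the IAA/Dox group had between Gm900 and Tmem121, 8 were at the 204.0-kb site, 5 at the 188.5-kb site, 3 at the 191.6-kb site and 1 at the 205.6-kb site. The total share was 0.313% ± 0.0965 and 0.198% ± 0.0300 (no overlap, exact p = 0.1, 0.18 adjusted; a difference of -0.114 percentage points, -0.107 without IAA/Dox replicate 1 and -0.132 without 3). It was -0.0596 without untreated replicate 1, and it turned to 0.0637 when every read was counted (exact p = 0.1). Without edge junctions the total was 0.210% and 0.140% (exact p = 0.2). The plus-strand part was 90.1% ± 10.8 and 78.7% ± 4.05 (exact p = 0.2), a difference of -11.4 percentage points that ran from -17.2 to -6.45 when 1 library was left out. Within the 1 run that held both groups (2 IAA/Dox libraries and 1 untreated) the far part differed by -14.1 percentage points. The total shares in that run lay closer together than the group means, at 0.179% and 0.233% with IAA/Dox and 0.240% untreated. The plus-strand parts there were 76.2% and 76.5% with IAA/Dox and 91.7% untreated. The change in the far part differed between the lines by -35.3 percentage points (exact permutation of the line labels within each treatment, p = 0.035, 400 arrangements), and without edge junctions p was 0.225. This p is not adjusted for the other measures tested in the same way. The test counts libraries that share junctions as separate, and it was not repeated without them.

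The single-Igh INV and single-Igh lines were compared with IAA/Dox in both, and several differences between them changed when edge junctions were left out. At the 204.0-kb site, which was also picked in these same data, the INV line had 0, 0 and 0 distinct junctions against 2, 3 and 3 (exact p = 0.1, 0.25 adjusted), and at the 205.6-kb site 1, 0 and 0 against 1, 0 and 0. The part beyond Ighm was 8.06% ± 10.6 against 44.3% ± 7.89 (no overlap, exact p = 0.1, 0.18 adjusted), and without edge junctions 38.1% against 62.7% (exact p = 0.4). The plus-strand part was 92.5% ± 6.61 against 78.7% ± 4.05 (no overlap, exact p = 0.1), and without edge junctions 72.4% against 69.6% (exact p = 1). Without edge junctions, INV replicate 1 held only 1 junction, on the plus strand and beyond Ighm, which entered both INV means as 100%. By library, the far part was then 1 of 1, 0 of 5 and 1 of 7, against 6 of 9, 10 of 14 and 6 of 12. The 38.1% and 72.4% thus rest largely on that 1 junction. The plus-strand interval within 5 kb of JH, which holds the edge junctions, had 42 against 18 and was higher by 1.65 (log2, SE 0.42, limma adjusted p = 0.000161), 1 of 2 intervals called, against 89.6% of all 134 (8.96% called higher and 80.6% lower, and 88.8% without overlap). Scaled by the trimmed mean of the intervals, both were higher. Without edge junctions, or with sequencing run as a block, neither was called. The total share, 0.254% ± 0.0103 against 0.198% ± 0.0300, had the higher mean (no overlap, exact p = 0.1), and without edge junctions the difference was -0.0774 percentage points. Replicates 2 and 3 of the INV line share junctions: without replicate 2 the far part differed by -32.2 percentage points and the interval by 1.64 (log2), and without replicate 3 by -34.3 and 1.64. Without replicate 1 or 3 of single-Igh IAA/Dox, the far part differed by -33.4 or -40.8 and the interval by 1.62 or 1.80.

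In bone marrow the far cluster held more junctions in the INV group. WT bone marrow had 2, 0 and 0 distinct junctions in the far cluster and none at either main site, and INV bone marrow had 4, 6, 4 and 5. The part beyond Ighm was 5.56% ± 9.62 (n = 3) and 41.1% ± 10.8 (n = 4), without overlap (two-sided exact permutation p = 0.0571, the smallest possible, 0.18 adjusted over 18 tests), and without the 1 kb next to JH 16.7% and 78.9% (exact p = 0.0571). The total share was 0.0421% ± 0.0119 and 0.0926% ± 0.0168, also without overlap (exact p = 0.0571), but with every read counted it was 0.0227% and 0.0215%, a difference of -0.00121 percentage points (exact p = 0.914). The plus-strand part was 87.7% ± 14.7 and 62.7% ± 13.4, with overlap (exact p = 0.114). In the run that held 3 INV and 2 WT libraries the far part differed by 43.7 percentage points, and in the run that held 1 of each by 16.7. When each library was left out, among them the INV replicates that share junctions, the far-part difference ran from 30.2 to 41.1 percentage points. The difference in the total share then ran from 0.0429 to 0.0564 percentage points. limma called 0 of the 2 constant-side intervals tested, with 0 at an unadjusted p under 0.05, against 92.5% of all 201 (27.4% higher and 65.2% lower, and 87.1% without overlap). Scaled by the trimmed mean of the intervals, it called both higher.

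INV bone marrow also had most of the minus-strand junctions of the far cluster. They numbered 1, 3, 1 and 5 in its libraries, 10 of the 16 seen in all, and its plus-strand junctions there numbered 3, 3, 3 and 0. The parental and untreated single-Igh groups had 2 each, untreated Wapl-degron and single-Igh IAA/Dox 1 each, and WT bone marrow none. A minus-strand site 194.7 kb from JH, seen in no other group, held 6 of the 10, from 39 reads in all 4 libraries. Within it, a single junction with 1 bait end and the same 17-base insert in all 16 of its reads made up 3. These were in replicates 2 to 4, which were sequenced in the same run. The 205.6-kb site junctions of INV bone marrow (2, from 33 reads) were all in replicate 1.

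The untreated Wapl-degron and parental lines did not differ in any of the tests run, which does not show that they are alike. The 205.6-kb site had 14, 13 and 22 and 2, 19 and 15 distinct junctions (0.124% ± 0.0476 and 0.0959% ± 0.0285, overlapping, exact p = 0.4), and the 204.0-kb site 4, 2 and 2 and 0, 6 and 6. The interval 205 to 210 kb had 52 and 37, a log2 difference of 0.17 (SE 0.43, limma adjusted p = 0.968). limma called 0 of the 4 constant-side intervals tested, with 0 at an unadjusted p under 0.05, against 0% of all 89, of which 1.12% had libraries that did not overlap. The part beyond Ighm was 53.8% ± 7.38 and 53.8% ± 3.85 (exact p = 1), and the total share 0.333% ± 0.0927 and 0.275% ± 0.124 (exact p = 0.6). No run held both groups, so run and group cannot be told apart.

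WT bone marrow and the parental line, which differ in cell type, culture and the RAG1/2 infection, were far apart at the 205.6-kb site and in the part beyond Ighm. The 205.6-kb site had 0 of 54292 distinct junctions in WT bone marrow, which allows up to 0.00553% over the group, against 36 in the parental line, 19.4-fold that limit. The 204.0-kb site had 0 against 12, 6.45-fold that limit, but parental replicate 1 also had 0, so the libraries overlap (exact p = 0.4, 0.75 adjusted). The folds pool libraries, with no error on the 36 and 12, and both sites were picked in these same data, in part through the parental line. In the fit, the plus-strand intervals 205 to 210 kb (0 against 37, limma adjusted p = 6.0e-07) and 200 to 205 kb (0 against 17, adjusted p = 0.0011, with parental replicate 1 also at 0) were called lower in bone marrow. Both passed the minimum of 10 junctions only through the parental line, so no other direction was open to them and their number supports nothing. The interval within 5 kb of JH was also called lower (18 against 44, log2 difference -1.87, SE 0.77, adjusted p = 0.0192). Of its junctions 13 and 34 lay at the JH4 edge, and it was not called without edge junctions (-1.68, adjusted p = 0.141), without parental replicate 2 (-1.84, adjusted p = 0.051) or without parental replicate 3 (-1.71, adjusted p = 0.0767). Over the whole locus 82.4% of 165 intervals were called (72.1% higher and 10.3% lower, and 85.5% without overlap). The part beyond Ighm was 5.56% ± 9.62 and 53.8% ± 3.85 (no overlap, exact p = 0.1, 0.18 adjusted). Here too no run held both groups, so run and group cannot be told apart.

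Libraries with a different bait, in part from other cells, gave almost no junctions here. In 12 libraries baited at the kappa light chain locus (Igk), from cycling v-Abl cells (4), bone marrow pre-B cells (3) and the Wapl-degron line untreated (3) or with IAA/Dox (2), 568001 reads were listed, of which 4 lay on the constant-gene side of JH and 0 between Gm900 and Tmem121.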

How the data were processed

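Junctions were measured by LAM-HTGTS with JH baits in 25 libraries of 8 groups. The deposited lists give for each read the prey and bait positions, strands and read coordinates, and no other unit: they are positions, made by the authors with Bowtie2 on mm9 per the submitters' processing notes (version not given in the sources used here). Counts, percentages and distances were computed from them. A distinct junction is a combination of prey position, strand and bait end, counted once per library. The labels name no molecular identifiers, so intervals cover counting error only.

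Shares were tested between groups by exact permutation, two-sided (Benjamini-Hochberg over 18 tests, 15 for sites). Counts of distinct junctions in 5-kb intervals by strand over the whole Igh locus and its flanks, with at least 10 junctions, were fitted with limma 3.58.1 voom in R 4.3.3, with all distinct junctions as library size. On simulated data, with 13 to 30 of 89 to 201 intervals per comparison raised 8-fold, 100% were recovered, with at most 0.813% false calls among the rest. The raised intervals were drawn from the whole locus and none was lowered. The recovery of falls on the constant-gene side was therefore not measured. The members and lists were chosen with earlier results of these data known. Named sites are the 10 with the highest mean of group means beyond 1 kb from JH and the 3 largest within it. Gene names and sequence come from an mm9 genome and GENCODE annotation, which name no Ighd. The far part was therefore counted from the end of Ighm away from JH in place of Ighd. Gene order came from RefSeq (GRCm38.p6). A trimmed mean of log ratios stood in for TMM factors.

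The labels do not say whether equal replicate numbers mark pairs. Deviations of same-numbered libraries from their group means were all positively correlated for the untreated Wapl-degron and parental libraries (0.381, 0.394 and 0.135). They were also for WT bone marrow and the parental line (0.361, 0.134 and 0.131). No run held both groups in either comparison, and what made these correlations was not tested, so they do not show pairing. Alternatives covered the counting of reads, denominators, intervals, filters, sequencing runs, the replicate block and leaving out each library. The lists of 1 wild-type bone marrow replicate that were filtered for off-target junctions are given only in the closing section.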

Additional observations from a re-analysis of the deposited data

Results flagged for a closer look

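The change in the part of the region beyond Ighm with IAA/Dox differed between the lines by -35.3 percentage points, -41.1 in Wapl-degron and -5.82 in single-Igh, and the difference itself was tested (exact permutation of the line labels within each treatment, p = 0.035 over 400 arrangements). Without edge junctions the changes were -40.1 and -13.1, with an exact p of 0.225. The same test of the total share and of the plus-strand part gave exact p = 0.87 and 0.86. None of these p-values is adjusted for the number of measures. The test counts libraries that share junctions as separate, and it was not repeated without them. Untreated libraries of these lines held 238249 to 871857 reads and treated ones 93156 to 226216, and the part of depth in this was not tested.

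A list outside the comparisons also held junctions of the region. Replicate 4 of wild-type bone marrow has only a list filtered for off-target junctions, and in it 13 distinct junctions (191 reads) lay on the constant-gene side, 17 of the reads with overlapping alignments. As in replicates 2 and 3, 0 lay between Gm900 and Tmem121.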

How the results depend on the processing

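Of 460 alternative values for 33 results, 397 did not turn or cross the threshold, or stayed within 1.5 times a count, but 3 of these are far-part differences of exactly 0 without the 5 kb next to JH. Ighm starts just beyond that cut, so the far part is then near 100% in every group by construction and the setting says nothing about it. Differences in the total share turned when every read was counted in INV bone marrow (-0.00121), Wapl-degron (0.408) and single-Igh (0.0637); with other chromosomes as denominator in Wapl-degron (0.854), single-Igh INV (-0.00945) and WT bone marrow against the parental line (2.15, and 0.586 also without edge junctions). For single-Igh INV it turned by prey position and strand alone (-0.186), without 1 kb (-0.0904) or 5 kb (-0.0658) next to JH, without edge junctions (-0.0774) and without edge junctions over other chromosomes (-0.260), and for the untreated lines by prey position and strand alone (-0.00689). The plus-strand part turned in Wapl-degron with every read (0.0275), and without 5 kb in Wapl-degron (1.52), single-Igh (1.67), the untreated lines (0.707) and WT bone marrow (2.22). The far part turned with every read in single-Igh (0.371) and, by that construction, without 5 kb in Wapl-degron (1.52) and WT bone marrow (1.11). The 204.0-kb site difference turned in Wapl-degron with every read (0.000412) or other chromosomes (0.102), and in single-Igh with other chromosomes (-0.0386). The cause of the others was not tested.

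The number of called intervals on this side moved in INV bone marrow from 0 to 2 with the trimmed mean, 1 with a minimum of 1 junction and 2 with every read; in Wapl-degron from 2 to 1 with D and VH junctions as library size, a minimum of 30 junctions or sequencing run as a block; in single-Igh from 1 to 2 with the trimmed mean, 0 with a minimum of 30, 2-kb or 10-kb intervals and 4 with every read; in single-Igh INV from 1 to 2 with the trimmed mean or 10-kb intervals and 0 without edge junctions or with run as a block; and in WT bone marrow against the parental line from 3 to 1 with every read. Leaving out each library gave 0 to 1, 1 to 2, 0 to 2 and 1 to 3 for INV bone marrow, Wapl-degron, single-Igh and WT bone marrow, and for the untreated lines -2.27 to 4.26 for the far part and -0.0129 to 0.0997 for the total share. The 204.0-kb site differences ranged from -0.0113 to 0.00781 in Wapl-degron and -0.000578 to 0.0179 in single-Igh.

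The replicate block changed no count of called intervals (0, 2, 1, 1, 0 and 3) in the 6 comparisons and turned no difference in shares; paired by number, INV bone marrow differed from WT by 0.0517, -22.8 and 36.7 percentage points in total, plus-strand and far part. Only in the comparisons of untreated lines and of WT bone marrow with the parental line was every same-numbered pair positively correlated, which does not show that the libraries were paired. With 4 to 54 junctions per library, single sites of a few junctions cannot be compared between groups, and no test of a share between 2 groups could pass 0.05.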
